A study of Mus musculus with 12 samples.

Results

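The 8 libraries of day 4 of reprogramming were taken as a 2 by 2 design that crossed deletion of AF10, the product of Mllt10, with SGC0946, an inhibitor of the histone methyltransferase DOT1L. They are 8 of the 12 RNA-seq libraries of the study, 2 in each of 4 groups, and every one of the 20325 genes in the deposited tables was a member, of which 13533 had enough counts to be tested. All 8 came from mouse embryonic fibroblasts (MEFs) of the genotype AF10 fl/fl, OSKM, rtTA, that is, with floxed AF10 alleles, a cassette of the reprogramming factors Pou5f1, Sox2, Klf4 and Myc, and the activator through which doxycycline switches the cassette on. Cells called fl had received an empty adenovirus (Ad5-CMV-Empty) and kept the floxed alleles. Cells called AF10-deleted (creAF10) had received the same kind of virus carrying Cre recombinase (Ad5-CMV-Cre). The Cre virus was given to floxed cells only, so its own effect and that of the deletion cannot be told apart. From 2 days after the virus all 4 groups were given 2 µg/mL doxycycline, in DMSO (Day4_fl_DMSO and Day4_creAF10_DMSO) or with 5 µM SGC0946 (Day4_fl_SGC and Day4_creAF10_SGC), on DR4 feeder MEFs, whose RNA is part of each day 4 library to an unknown share. The interaction of a gene was its change in SGC0946 against DMSO in AF10-deleted cells minus the same change in fl cells, on the log2 scale. It is 0 where the 2 fold changes multiply, negative where cells with both treatments had less of the transcript than that, and positive where they had more.

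DOT1L places methyl groups on lysine 79 of histone H3 along the bodies of transcribed genes. It works in a complex in which AF10 helps it to add further methyl groups to a lysine that already carries one, while AF9 and ENL (Mllt3 and Mllt1) tie it to proteins of transcription elongation. SGC0946 occupies the pocket of DOT1L that holds the methyl donor, and inhibition of DOT1L is known to raise the yield of reprogramming from fibroblasts. The comparison therefore asks, gene by gene, whether loss of the cofactor has the same effect on RNA with the enzyme inhibited as without inhibition.

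Promoter sequences of 4 genes with large interactions, Col28a1, Bex1, Lcn2 and Megf9, are shown first, since their levels in all 4 groups carry the results below and the last of them moved the other way. Each holds 250 bases before and 50 bases after the start site on the gene's own strand, from RefSeq on GRCm38.p6, with every CG dinucleotide in capitals.
Col28a1, chr6:8192568-8192867, minus strand: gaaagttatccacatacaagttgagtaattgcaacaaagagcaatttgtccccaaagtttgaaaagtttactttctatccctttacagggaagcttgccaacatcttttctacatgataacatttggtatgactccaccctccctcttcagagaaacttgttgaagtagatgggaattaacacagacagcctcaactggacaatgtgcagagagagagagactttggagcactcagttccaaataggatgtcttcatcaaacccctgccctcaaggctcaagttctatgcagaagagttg
Bex1, chrX:136215464-136215763, minus strand: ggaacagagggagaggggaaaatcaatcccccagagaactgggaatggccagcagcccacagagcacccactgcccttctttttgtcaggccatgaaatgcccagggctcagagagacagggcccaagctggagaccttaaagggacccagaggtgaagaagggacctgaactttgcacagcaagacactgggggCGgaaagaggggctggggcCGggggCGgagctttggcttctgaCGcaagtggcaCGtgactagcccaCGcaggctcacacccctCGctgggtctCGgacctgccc
Lcn2, chr2:32387690-32387989, minus strand: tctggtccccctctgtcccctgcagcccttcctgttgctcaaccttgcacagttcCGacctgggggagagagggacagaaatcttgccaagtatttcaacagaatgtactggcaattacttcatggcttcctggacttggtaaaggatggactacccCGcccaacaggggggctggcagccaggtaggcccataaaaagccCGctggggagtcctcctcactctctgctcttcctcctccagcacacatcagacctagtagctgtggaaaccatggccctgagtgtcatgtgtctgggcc
Megf9, chr4:70534879-70535178, minus strand: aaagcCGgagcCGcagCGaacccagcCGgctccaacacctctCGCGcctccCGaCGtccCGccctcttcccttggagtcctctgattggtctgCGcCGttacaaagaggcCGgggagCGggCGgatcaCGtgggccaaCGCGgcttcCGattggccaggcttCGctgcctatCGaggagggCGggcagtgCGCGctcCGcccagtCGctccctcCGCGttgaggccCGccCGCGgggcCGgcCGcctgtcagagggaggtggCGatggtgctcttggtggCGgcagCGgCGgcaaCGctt
The motif searched was CG, which reads the same on both strands. The promoter of Col28a1 held 0 of them, as did 5.43% of the 32851 promoters in the table, that of Lcn2 held 3 and that of Bex1 8. The promoter of Megf9 held 37, and its ratio of observed to expected CG was 0.979 against 0.127 at Lcn2, 0.286 at Bex1 and a median of 0.384 over the table. Over the 12358 promoters of 9619 tested genes that median was 0.736 and 0.68% held 0 CG. A promoter was found for 37 of the 50 genes called below and for 71.1% of those tested, too few for a comparison of promoters between the sets, so these 4 stand as a description.

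The rounded expected counts summed to 14602536 to 21109210 per library. Within each replicate number Mllt10 was lower after AF10 deletion, at 45.9 and 43.3 against 63.7 and 57.2 CPM (counts scaled to a common library size) in DMSO and at 43.3 and 42.3 against 56.4 and 57.9 in SGC0946, and its interaction was 0.02 ± 0.11 (SE). The fibroblast and matrix list summed to 35380 to 39290 CPM over the 8 libraries, and the macrophage and blood list to 60.7 to 88.1 CPM. Y-linked genes had 4035 to 4780 counts in every replicate 1 library and 20 to 52 in every replicate 2 library, so the numbers mark 2 sources of cells of different sex, which the labels do not name. The difference was therefore taken within each replicate number. In bulk RNA, fewer cells of a type and less RNA per cell cannot be told apart.

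AF10 deletion and SGC0946 did not add up on the log2 scale for 50 of the 13533 genes tested (0.369%, edgeR quasi-likelihood test with the replicate number as a block, Benjamini-Hochberg adjusted p under 0.05). The interaction was negative for 46 of them (0.34%) and positive for 4 (0.0296%). The negative ones included the collagen gene Col28a1, the acute phase protein Lcn2, the receptor kinase Ret, the matrix protease Mmp3, the epithelial cadherin Cdh1 and the stress genes Junb, Dusp1 and Ier5, and the positive ones Megf9, Prune2 and Pik3r3. All 46 were negative in replicate 1 and in replicate 2 taken alone, on the log2 scale and also as a difference of differences in CPM. They were picked by a fit to these same replicates, so the shared sign largely follows from the choice and does not test it. Of all genes tested, 57.9% had the same sign in both. Across all genes the 2 replicate numbers, which share no library, gave interactions with a Pearson correlation of 0.0926 and a Spearman correlation of 0.201. Genes are not independent replicates, and the Pearson value was 0.206 over the 9487 genes with a mean count over 200.

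The calls rest on the pairing by replicate number. Without the block, edgeR called 0 genes for the interaction, with 483 at an unadjusted p under 0.05 and a lowest adjusted p of 0.293, and DESeq2 without the block called 5. With the block 1377 genes had an unadjusted p under 0.05, where 677 would come by chance. DESeq2 with the block called 41 genes, 32 of them among the 50. The count was 9 without Day4_fl_DMSO replicate 2 and 32 without Day4_fl_DMSO replicate 1. It was 32 without Day4_fl_SGC replicate 2, 27 without Day4_creAF10_SGC replicate 1 and 29 without Day4_creAF10_SGC replicate 2. Each of the 50 kept its sign in these fits, and 7 stayed called whichever of the 8 libraries was left out: Angptl7, Htra3, Ier5, Ptx3, Ret, Rpl26 and Wnt16. The fit has 3 residual degrees of freedom, so p-values draw mostly on the spread of other genes, and they measure how alike 2 sources of cells were, not the spread over many animals.

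**Figure D1:**
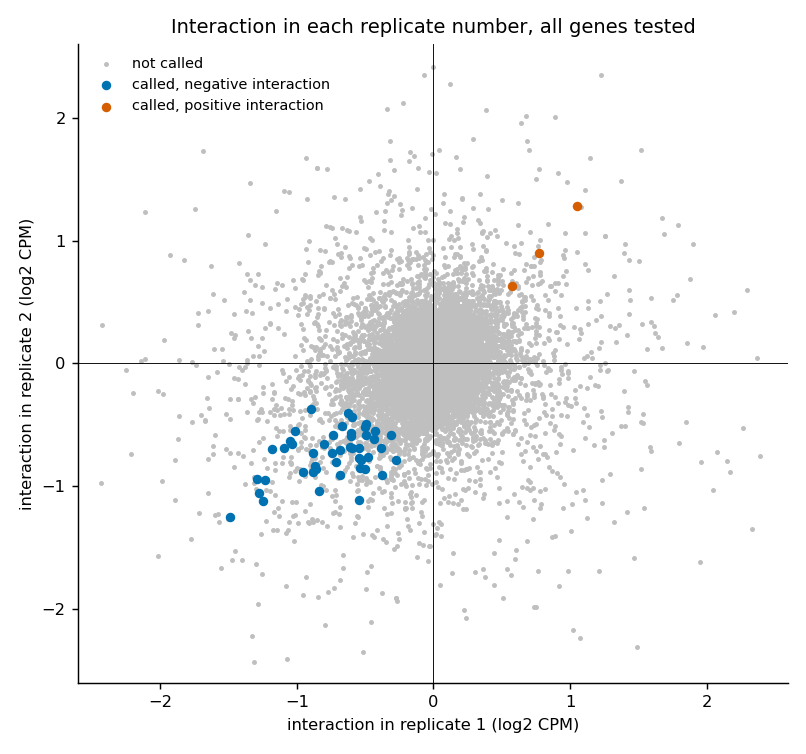
Interaction in replicate 1 (x axis, log2 CPM) against replicate 2 (y axis, log2 CPM) for all genes tested, 1 point a gene, with called genes in colour. The 46 genes with a negative interaction lie at the lower left and 3 of the 4 positive ones in the upper right; 32 genes lie outside the axes of ±2.5, among them the called gene Rangrf.

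The shape shared by most of the 46 was a rise with either treatment alone. SGC0946 added to AF10-deleted cells gave a further rise in 31 of the 46, smaller than in fl cells. Among cells in SGC0946, AF10 deletion gave little change or a fall, with 33 of the 46 values negative. In fl cells SGC0946 alone raised 42 of the 46 (of all genes tested 1482 of 13533 rose and 17.4% changed in either direction), by a median of 0.89 on the log2 scale over the 46, and all 46 values were positive. AF10 deletion alone, in DMSO, raised 42 and lowered 0 (of all genes 3.35% rose and 2.86% fell, 6.21% in all), by a median of 0.57, again with 46 positive values. In SGC0946 the same deletion raised 0 (0.0813% of all genes rose; edgeR, also 0 at an unadjusted p under 0.05, where 16 were lower) and lowered 4, Angptl4, Angptl7, Rpl26 and Rps16 (0.0961% of all genes fell; Angptl4 and Rps16 are named after their values were seen), with a median of -0.13, and 28 of the 46 values lay within 0.2 of 0. SGC0946 in AF10-deleted cells raised 22 (5.32% of all genes rose) and lowered 7 (2.17% of all genes fell, 7.49% changed in either direction), with a median of 0.26. Both treatments against neither raised 35 of the 46 and lowered 1, Rpl26 (of all genes 12.6% rose and 8.5% fell), with a median of 0.82. The genes were picked by an interaction made from these same libraries, so the counts describe the shape and do not test it. They too rest on the pairing: without the block edgeR called 0 genes for AF10 deletion in DMSO (841 with it) and 0 in SGC0946 (24 with it), and 533 and 55 for SGC0946 in fl and AF10-deleted cells (2355 and 1014 with it).

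Ordered by level, fl cells in DMSO were the lowest of the 4 groups in both replicates for 39 of the 46 genes. The cells with both treatments were below fl cells in SGC0946 in both replicates for 29 genes and above them for 6. They were above AF10-deleted cells in DMSO for 31 and below them for 13. The level with both treatments was a median of 62.5% of the product of the 2 single fold changes in replicate 1 (range 34.7 to 82.5%) and 61.2% in replicate 2 (41.5 to 77.3%). This percentage is the interaction on another scale, so a level under the product follows from how the genes were chosen.

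**Figure D2:**
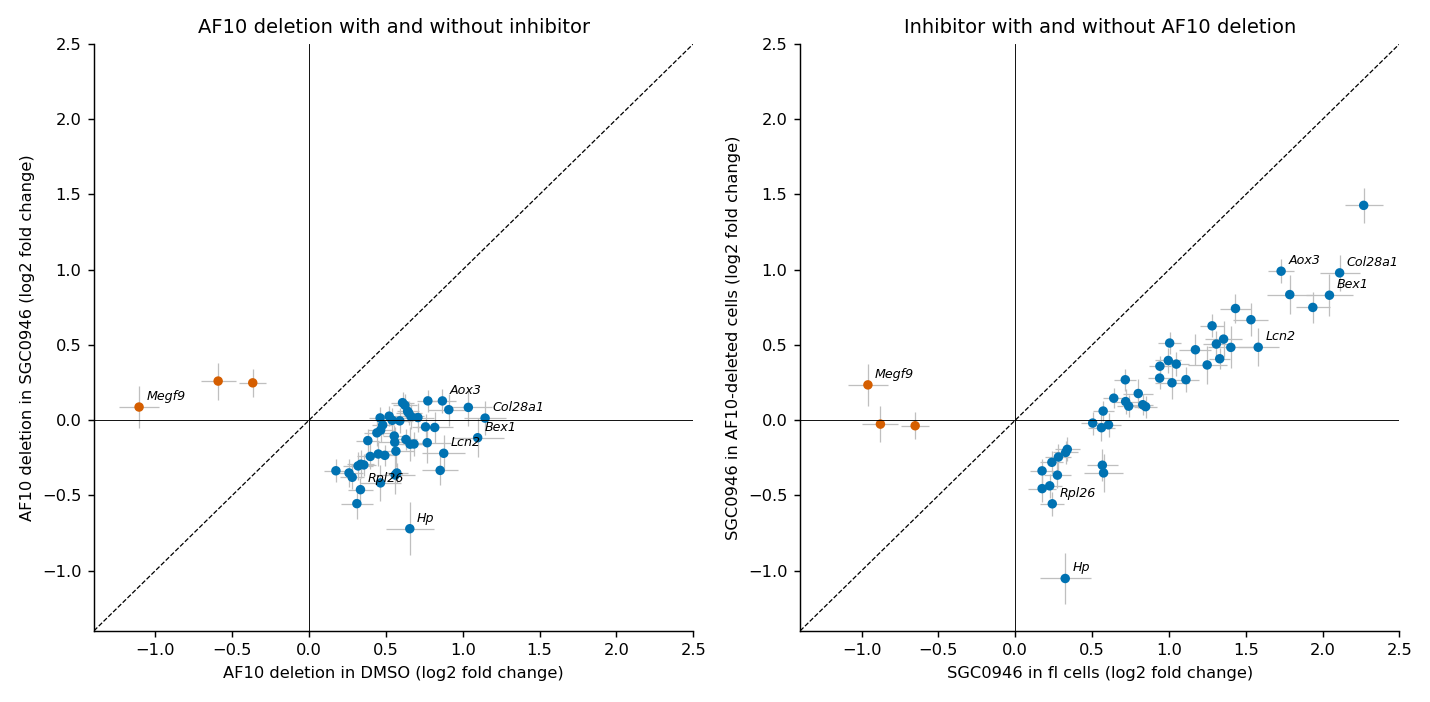
Log2 fold changes of 49 called genes, with SE bars. Left, AF10 deletion in DMSO (x) against SGC0946 (y), where most genes with a negative interaction (blue) lie to the right of 0 and near 0 in height; right, SGC0946 in fl (x) against AF10-deleted cells (y), where the blue points lie under the dashed line of equal effects and the 3 positive genes (orange) over it. Rangrf lies outside the axes.

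**Figure D3:**
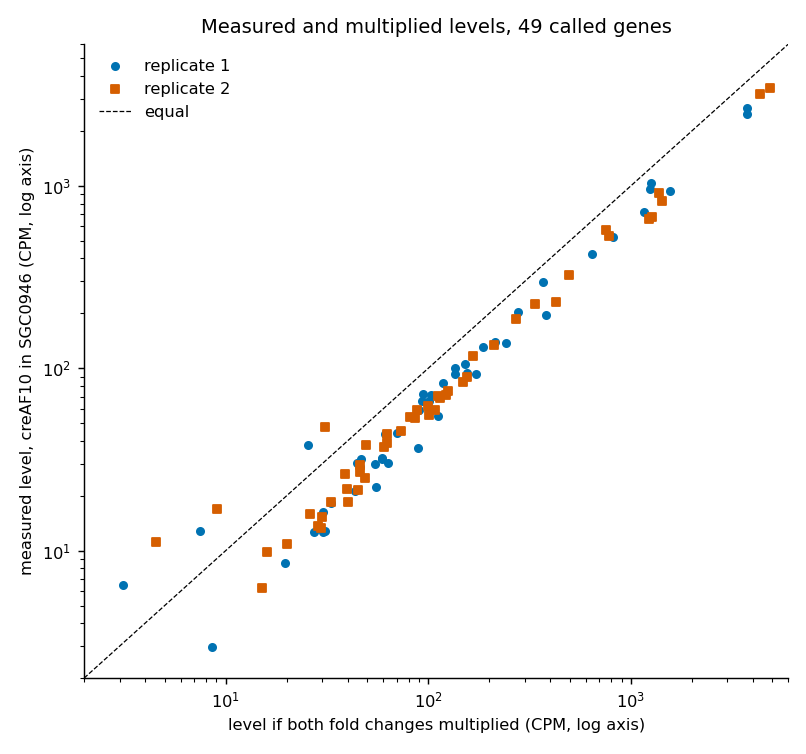
Level measured in AF10-deleted cells in SGC0946 (y, CPM, log axis) against the level that the 2 single fold changes give when multiplied (x, CPM, log axis), for 49 called genes in replicate 1 (circles) and replicate 2 (squares). Points of the 46 negative genes lie below the dashed line of equality in both replicates, at a median of 62.5% and 61.2% of the product, and those of Megf9, Prune2 and Pik3r3 lie above it. The genes were called on this same difference, so their side of the line follows from the choice.

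Col28a1 encodes a collagen with von Willebrand factor domains, known mostly from peripheral nerve. It had 5.37 and 5.45 CPM in replicates 1 and 2 of fl cells in DMSO, 12.5 and 11.5 after AF10 deletion in DMSO, 23.6 and 23.2 in fl cells in SGC0946 and 22.2 and 25.1 with both. Both single treatments raised it without overlap, and the 2 groups in SGC0946 overlapped. AF10 deletion changed it by 1.15 in DMSO and by 0.01 in SGC0946 on the log2 scale, and the interaction was -1.13 ± 0.18 (SE) (n = 2 per group, edgeR adjusted p = 0.00181).

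Bex1, a small adaptor protein of neurons, stood at 3.88 and 3.03 CPM in fl cells in DMSO, 8.15 and 6.60 after AF10 deletion in DMSO, 14.7 and 13.6 in fl cells in SGC0946 and 12.8 and 13.4 with both treatments. As for Col28a1, fl cells in DMSO were lowest and AF10-deleted cells in DMSO next, and in SGC0946 both AF10-deleted libraries lay a little below both fl libraries. Its interaction was -1.21 ± 0.21 (SE) (edgeR adjusted p = 0.00472). The interactions of its relatives Bex4 and Bex2, named after their values were seen, were -0.81 and -0.38 and did not pass (edgeR adjusted p = 0.19 and 0.60).

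Lcn2, lipocalin 2, binds bacterial siderophores and is a marker of the acute phase response. Its level was 4.89 and 5.97 CPM in fl cells in DMSO, 9.86 and 10.1 after AF10 deletion, 15.0 and 17.6 in SGC0946 and 12.6 and 15.4 with both. Within each replicate number the cells with both treatments had less than fl cells in SGC0946, although the ranges of the 2 groups overlapped. SGC0946 raised Lcn2 by 1.58 in fl cells and by 0.48 in AF10-deleted cells, an interaction of -1.10 ± 0.19 (SE) (edgeR adjusted p = 0.00346).

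Megf9, a membrane protein with EGF-like repeats that is expressed in the nervous system, went the other way. It had 12.6 and 19.3 CPM in fl cells in DMSO, 5.82 and 9.03 after AF10 deletion, 6.74 and 9.66 in SGC0946 and 6.49 and 11.1 with both. Replicate 2 was higher than replicate 1 in every group, and in each replicate number fl cells in DMSO were the highest while the other 3 groups lay close together. AF10 deletion lowered it by 1.11 in DMSO and changed it by 0.09 in SGC0946, and the interaction was 1.19 ± 0.19 (SE) (edgeR adjusted p = 0.0021).

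**Figure D4:**
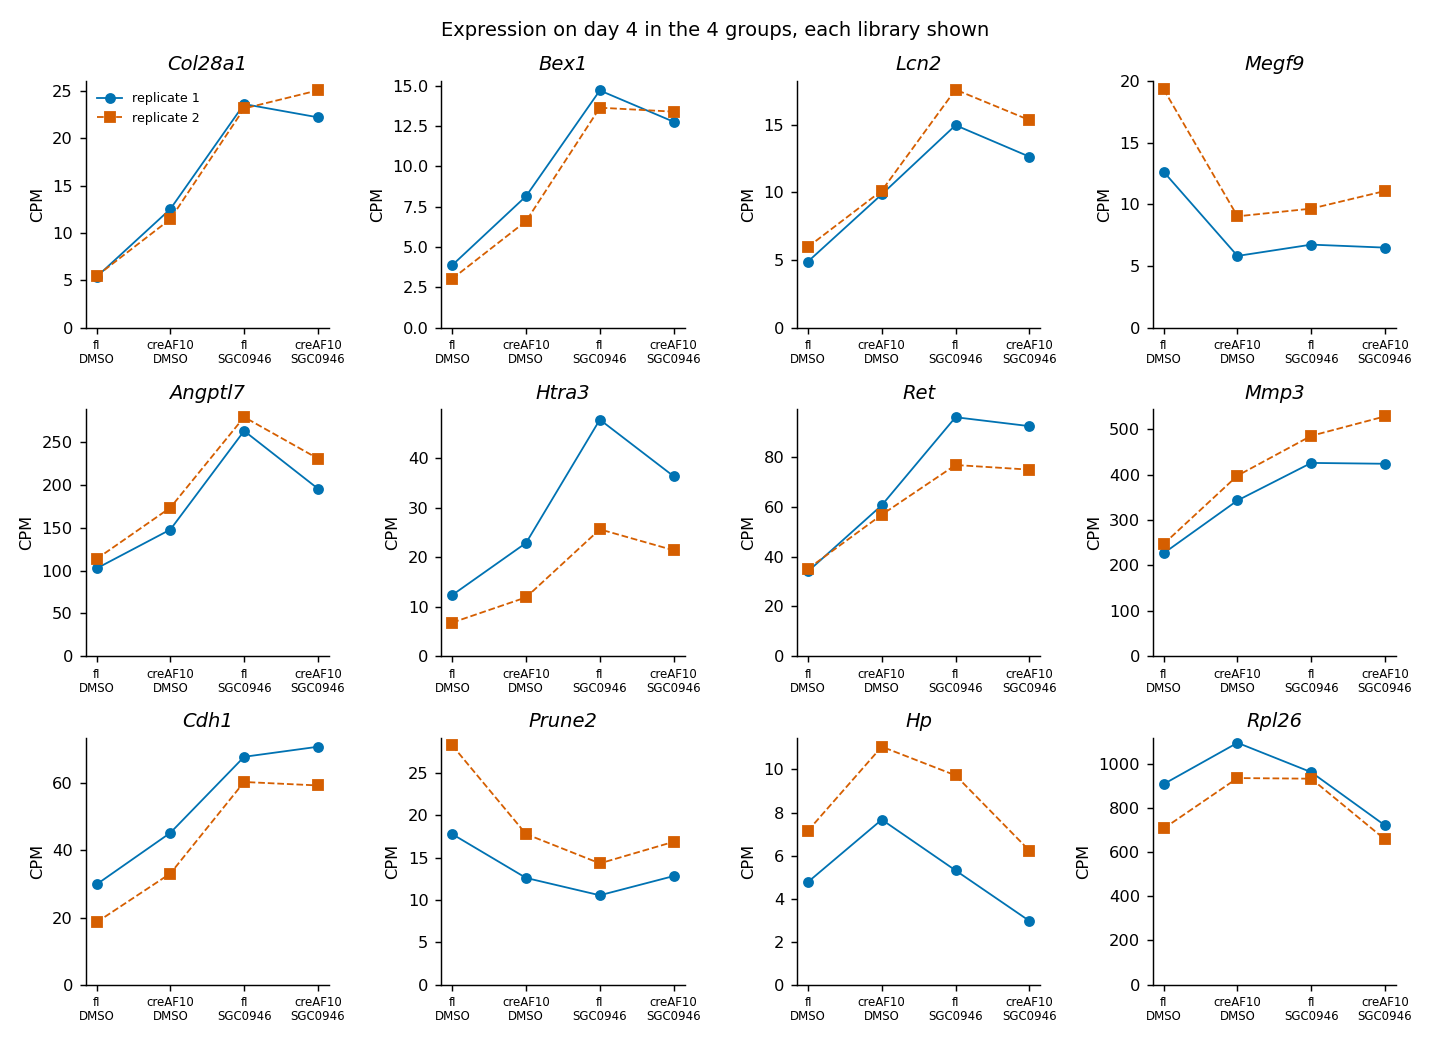
CPM (y axes, from 0) of 12 called genes in the 4 groups, 1 point a library, joined within replicate 1 (circles) and replicate 2 (squares). Most panels rise from fl in DMSO to AF10-deleted in DMSO to fl in SGC0946 and then level or dip with both treatments, Megf9 and Prune2 fall from fl in DMSO, and Hp and Rpl26 lie with both treatments under the level of fl in DMSO in both replicates.

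The other genes are taken in the order of what their products do, a grouping made after the values were seen and not tested. Angptl7, a secreted angiopoietin-like protein of connective tissue, had the lowest adjusted p among the 46. It rose from 103 and 114 CPM in fl cells in DMSO to 148 and 174 after AF10 deletion and 263 and 279.6 in SGC0946, and was at 196 and 231 with both. The cells with both treatments lay between the 2 single treatments without overlap, and AF10 deletion lowered it in SGC0946 (-0.35, edgeR adjusted p = 0.0278). Its interaction was -0.92 ± 0.10 (SE) (edgeR adjusted p = 9.67e-06).

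Htra3, a secreted serine protease that acts on matrix proteins, had 12.3 and 6.78 CPM in fl cells in DMSO, 22.9 and 11.9 after deletion, 47.8 and 25.6 in SGC0946 and 36.3 and 21.4 with both. Replicate 1 was higher than replicate 2 in every group and the groups overlap, while the order of the 4 groups was the same in each replicate. Its interaction was -1.19 ± 0.15 (SE) (edgeR adjusted p = 0.000244), and -1.28 and -1.06 in replicates 1 and 2.

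Ptx3, a soluble pattern recognition protein of the pentraxin family, rose from 89.0 and 90.8 CPM to 132 and 122 with AF10 deletion and 163 and 157 with SGC0946, and had 138 and 134 with both. The level with both treatments was below that with SGC0946 alone in each replicate, and the interaction was -0.73 ± 0.10 (SE) (edgeR adjusted p = 0.00033). Wnt16, a Wnt ligand of bone and connective tissue, had 27.6 and 37.1 CPM in fl cells in DMSO and 49.2 and 54.1, 62.8 and 76.6 and 54.5 and 70.7 after deletion, in SGC0946 and with both. In replicate 1 SGC0946 moved it from 49.2 to 54.5 CPM in AF10-deleted cells and from 27.6 to 62.8 in fl cells. In replicate 2 it moved from 54.1 to 70.7 and from 37.1 to 76.6. The interaction was -1.04 and -0.66 in replicates 1 and 2 (fitted -0.84 ± 0.12 (SE), edgeR adjusted p = 0.00045). Apoe, the lipid carrier, had 49.7 and 34.1, 59.7 and 46.6, 113 and 89.1 and 92.7 and 71.6 CPM in the same order of groups and an interaction of -0.65 ± 0.11 (SE) (edgeR adjusted p = 0.00346).

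Of the matrix genes, Mmp3, the protease stromelysin 1, had 227 and 247 CPM in fl cells in DMSO, 343 and 398 after deletion, 426 and 486 in SGC0946 and 424 and 528 with both. Here the 2 groups in SGC0946 overlapped, AF10 deletion having moved it by 0.64 in DMSO and by 0.06 in SGC0946, and the interaction was -0.58 ± 0.10 (SE) (edgeR adjusted p = 0.00371). Spp1, osteopontin, was among the most abundant, at 1247 and 1562 CPM in fl cells in DMSO and 2667 and 3453 with both, and had an interaction of -0.49 ± 0.10 (SE) (edgeR adjusted p = 0.025). It did not pass once the trend with transcript length was taken out (edgeR adjusted p = 0.0754). Mgp, matrix Gla protein, an inhibitor of calcification, reached its highest level in AF10-deleted cells in DMSO, at 3085 and 3779.7 CPM, and stood at 2297 and 2988 in fl cells in DMSO, 2785 and 3428 in SGC0946 and 2474 and 3196 with both. SGC0946 therefore raised it in fl cells (0.24, edgeR adjusted p = 0.0285) and lowered it in AF10-deleted cells (-0.28, edgeR adjusted p = 0.0201). Prg4, Dmp1 and Mfap4, also called and named here after their values were seen, encode a lubricating proteoglycan, a protein of mineralised matrix and a microfibril protein, with interactions of -0.70, -0.93 and -0.61.

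At the cell surface, Ret, the receptor kinase for ligands of the GDNF family, rose from 34.1 and 35.2 CPM to 60.7 and 56.9 with AF10 deletion and to 96.2 and 76.9 with SGC0946, and had 92.6 and 75.1 with both. AF10 deletion changed it by 0.76 in DMSO and by -0.04 in SGC0946, and the interaction was -0.80 ± 0.12 (SE) (edgeR adjusted p = 0.00159). Icam1, an adhesion molecule for leukocytes, had 27.7 and 25.8, 41.6 and 39.0, 46.8 and 41.3 and 44.1 and 43.6 CPM in fl cells in DMSO, after deletion, in SGC0946 and with both. It reached nearly the same level by each route, with an interaction of -0.59 ± 0.12 (SE) (edgeR adjusted p = 0.02).

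Of the epithelial genes, whose rise belongs to the early steps of reprogramming, Cdh1 and Spint1 are described. Cdh1, E-cadherin, had 29.9 and 18.6 CPM in fl cells in DMSO, 45.3 and 33.1 after AF10 deletion in DMSO, 67.9 and 60.4 in fl cells in SGC0946 and 70.9 and 59.4 with both. SGC0946 raised it by 1.43 in fl and by 0.74 in AF10-deleted cells, and the 2 groups in SGC0946 overlapped (interaction -0.69 ± 0.14 (SE), edgeR adjusted p = 0.0238). The call of Cdh1 was near the threshold in DESeq2 with the block (adjusted p = 0.0499). With dispersions that were not robust it did not pass (edgeR adjusted p = 0.0519). Without Day4_fl_DMSO replicate 2 its interaction was -0.50. Spint1, a membrane-bound inhibitor of serine proteases, had 4.53 and 4.17, 8.90 and 8.92, 16.9 and 13.4 and 18.3 and 13.7 CPM in the same order and an interaction of -0.95 ± 0.20 (SE). It passed in edgeR (adjusted p = 0.0243) but not in DESeq2 with the block (adjusted p = 0.212). The whole epithelial list, 18 genes tested, had 14 negative interactions and a median of -0.40. Over all genes 6767 of 13533 were negative, with a median of -8.73e-05. The interaction was called for 3 of the 18 (0.369% of all genes). In the simple effects AF10 deletion raised 6 of the 18 in DMSO (3.35% of all genes rose) and 0 in SGC0946 (0.0813% of all genes). With so small a share over all genes, 0 of 18 in SGC0946 does not set this list apart. SGC0946 raised 15 in fl cells (1482 of all 13533 genes rose) and 14 in AF10-deleted cells (5.32% of all genes). Summed over the list, replicates 1 and 2 had 187 and 247 CPM in fl cells in DMSO, 239 and 288 after deletion, 379 and 408 in SGC0946 and 393 and 423 with both.

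Among signalling and transcription genes, Ier5, an early response gene, had 54.9 and 53.5 CPM in fl cells in DMSO, 86.9 and 81.0 after deletion, 97.6 and 97.5 in SGC0946 and 94.1 and 84.5 with both. SGC0946 raised it by 0.85 in fl cells, while its value in AF10-deleted cells was 0.09 (edgeR adjusted p = 0.549), which makes an interaction of -0.76 ± 0.10 (SE) (edgeR adjusted p = 0.000369). Rgs3, a regulator of G protein signalling, had 58.8 and 50.6, 83.5 and 76.8, 107 and 102 and 105 and 89.8 CPM and an interaction of -0.66 ± 0.10 (SE). Junb, a subunit of the transcription factor AP-1, and Dusp1, a phosphatase that acts on MAP kinases, were higher in replicate 2 than in replicate 1 in every group. Junb had 119.9 and 238 CPM in fl cells in DMSO and 194 and 350.4, 171 and 336 and 204 and 323 after deletion, in SGC0946 and with both, and Dusp1 had 63.5 and 117, 87.9 and 173, 97.9 and 184 and 100.5 and 186. Their interactions were -0.52 ± 0.11 (SE) and -0.49 ± 0.10 (SE) (edgeR adjusted p = 0.0235 and 0.015). Over the immediate early list 16 of 22 genes tested were negative, with a median of -0.20, and these 2 were called. AF10 deletion raised 10 of the 22 in DMSO (3.35% of all genes rose) and 1 in SGC0946 (0.0813% of all genes).

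Upp1 and Aox3 are the metabolic enzymes named by the rule. Upp1, uridine phosphorylase, which breaks down uridine, had 79.4 and 32.5 CPM in fl cells in DMSO, 129.8 and 58.5 after deletion, 129.9 and 55.5 in SGC0946 and 139 and 62.1 with both. Each treatment alone brought it to about the same level, the second added 0.09 or 0.13 on the log2 scale, and the interaction was -0.64 ± 0.10 (SE) (edgeR adjusted p = 0.0021). Aox3, an aldehyde oxidase, was highest with both, at 59.8 and 68.8 CPM against 17.2 and 18.2 in fl cells in DMSO, 31.3 and 33.4 after deletion and 55.3 and 62.4 in SGC0946. It rose in SGC0946 in both genotypes, by 1.73 and 0.99, and its interaction was -0.74 ± 0.12 (SE) (edgeR adjusted p = 0.0021).

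A smaller set fell when SGC0946 was given to AF10-deleted cells. Of the 46, 15 had a negative value there, and the 7 that passed the test were Hp, Rpl26, Rps16, Cyp2f2, Rplp2, Rps15 and Mgp, all of them except Rpl26 and Mgp named here after their values were seen. Hp, haptoglobin, the plasma protein that binds free haemoglobin, had 4.77 and 7.16 CPM in fl cells in DMSO, 7.67 and 11.1 after deletion, 5.31 and 9.73 in SGC0946 and 2.96 and 6.23 with both. It was lowest with both treatments within each replicate number, SGC0946 changed it by 0.32 in fl cells (edgeR adjusted p = 0.196) and by -1.05 in AF10-deleted cells (edgeR adjusted p = 0.00022), and its interaction of -1.38 ± 0.24 (SE) was the largest in size of the 46. The counts behind Hp were few, 112.6 in mean over the 8 libraries. Angptl4, an inhibitor of lipoprotein lipase, also named after its values were seen, was lower with AF10 deletion in SGC0946 (-0.55, edgeR adjusted p = 0.0215), at 32.2 and 18.6 CPM against 45.3 and 28.6.

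Rpl26, a protein of the large ribosomal subunit, had 908 and 707 CPM in fl cells in DMSO, 1094 and 935 after deletion, 961 and 932 in SGC0946 and 720.3 and 657 with both. The cells with both treatments were the lowest in each replicate, and the interaction was -0.80 ± 0.11 (SE) (edgeR adjusted p = 0.00045). The ribosomal protein genes Rps16, Rps15, Rplp2 and Rpl21, named after their values were seen, were called as well, with interactions of -0.66, -0.64, -0.51 and -0.53. Of the 81 ribosomal protein genes tested, a list added after the data were seen, 66 were negative, with a median of -0.12, and the 5 named were called. Such genes have many near-identical processed copies in the genome, and how the counting divided shared reads could move their values. They are also short, and the interaction followed transcript length: its median was -0.14 over the 338 genes shorter than 700 bases, -0.10 over the 584 of 700 to 1000 bases, -0.05 over the 3042 of 1000 to 2000, -0.00362 over the 5738 of 2000 to 4000 and 0.06 over the 3831 longer ones. The share called was 1.78% in the shortest class and 0.209% in the longest. After the trend with length was taken out of each library, an alternative chosen after the data were seen, the median of the ribosomal list was -0.03, with 51 of 81 negative and 2 called (Rpl26 and Rps16). In that fit 40 genes were called in all, 36 of them among the 50, and each of the 50 kept its sign. The 14 that were no longer called included Spp1, Mgp, Junb, Prune2 and Pik3r3. The part of length in the calls was not tested further.

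Positive interactions were few. Prune2, a protein with a lipid-binding BCH domain, had 17.8 and 28.2 CPM in fl cells in DMSO, 12.6 and 17.8 after AF10 deletion, 10.5 and 14.3 in SGC0946 and 12.8 and 16.9 with both. Pik3r3, a regulatory subunit of phosphoinositide 3-kinase, had 44.0 and 71.5, 35.9 and 53.2, 31.2 and 41.5 and 38.1 and 47.8 CPM in the same order. In both genes, as in Megf9, fl cells in DMSO were the highest group in each replicate number. SGC0946 in AF10-deleted cells moved Prune2 and Pik3r3 little, by -0.03 and -0.04. AF10 deletion changed Prune2 and Pik3r3 by -0.59 and -0.37 in DMSO. In SGC0946 the values were 0.26 and 0.25 (edgeR adjusted p = 0.66 and 0.49). Their interactions were 0.85 ± 0.17 (SE) and 0.61 ± 0.13 (SE) (edgeR adjusted p = 0.0156 and 0.0235). Neither passed in DESeq2 with the block (adjusted p = 0.102 for each). The remaining positive call, Rangrf, named after its values were seen, had 0 counts in 6 libraries and 195 and 187 in Day4_fl_DMSO replicate 2 and Day4_creAF10_SGC replicate 2, so its fitted value rests on replicate 2 alone and is not given.

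The genes of the machinery itself were not called. Dot1l had 62.1 and 54.5 CPM in fl cells in DMSO, 59.0 and 57.4 after deletion, 74.2 and 60.6 in SGC0946 and 70.8 and 62.3 with both, and an interaction of -0.02 ± 0.11 (SE) (edgeR adjusted p = 0.98). AF10 deletion changed Mllt10 by -0.44 in DMSO and by -0.42 in SGC0946. Of the 9 genes of the DOT1L complex and the 17 of the super elongation complex edgeR and DESeq2 with the block called 0, with medians of 0.02 and -0.00209 and with 0 and 1 genes at an unadjusted p under 0.05. Both tools gave 0 calls for the 4 reprogramming factors, 1 of which, Pou5f1, had an unadjusted p under 0.05 in edgeR. Pou5f1 had 132 and 145 CPM in fl cells in DMSO and 110 and 92.9 after deletion. It had 119 and 101 in SGC0946 and 94.3 and 97.4 with both. Its interaction was 0.26 ± 0.12 (SE), made of -0.07 in replicate 1 and 0.59 in replicate 2, so the positive value rests on replicate 2. Sox2, Klf4 and Myc had 0.06 ± 0.11 (SE), 0.08 ± 0.10 (SE) and -0.02 ± 0.10 (SE). The sign of Sox2 also differed between replicates 1 and 2, at 0.27 and -0.15. The tables hold 1 value a gene and do not part the cassette from the endogenous copy. The 40 Hox genes and cofactors, which are known targets of DOT1L in leukaemia, had a median of -0.07 and 0 calls for the interaction by either tool (4 at an unadjusted p under 0.05 in edgeR). SGC0946 lowered 14 of them in fl cells (6.45% of all genes fell) and 14 after deletion (2.17% of all genes).

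Other gene lists are given by counts. Secreted inflammation and acute phase genes had 25 negative interactions of 32 tested, with a median of -0.24, and Lcn2, Mmp3, Icam1 and Spp1 were called. AF10 deletion raised 15 of the 32 in DMSO (3.35% of all genes rose) and 0 in SGC0946 (0.0813% of all genes). The 0 of 32 in SGC0946 does not set this list apart, since so few genes rose there. SGC0946 raised 21 in fl cells (1482 of all 13533 genes rose) and 15 in AF10-deleted cells (5.32% of all genes). Of the 15 cartilage and bone genes tested 11 were negative, with a median of -0.19. The calls were Col28a1, a collagen known mostly from peripheral nerve, and Spp1, which the inflammation list also holds. The neural list had 11 negative values of 16, a median of -0.19 and 1 call in each direction, Bex1 and Megf9. Adipocyte genes were negative in 8 of 10, with a median of -0.19, and pluripotency genes in 6 of 10, with a median of -0.22. Of these 2 lists edgeR and DESeq2 with the block called 0, with 4 and 2 genes at an unadjusted p under 0.05. Fibroblast and matrix genes stood at 15 negative of 29, a median of -0.00299 and 1 call, Mgp. Interferon response genes lay on the other side, with 25 of 38 positive, a median of 0.12 and 0 calls by either tool (6 at an unadjusted p under 0.05 in edgeR). SGC0946 lowered 11 and raised 5 of them in fl cells, and lowered 0 and raised 3 after deletion, where 2.17% of all genes fell. The difference between these counts was not tested. Ifitm1, an interferon-induced gene outside this list, named after its values were seen, was called with a negative interaction (-0.45, edgeR adjusted p = 0.0497). With the length offset it did not pass (edgeR adjusted p = 0.162). For macrophage and blood genes the median was 0.14, made of 0.44 in replicate 1 and -0.24 in replicate 2, and 0 calls by either tool (1 at an unadjusted p under 0.05 in edgeR). None of the remaining lists (endothelial, cell cycle, p53 targets, cholesterol and fatty acid synthesis, glycolysis and hypoxia, unfolded protein and stress, metallothionein and redox, polycomb and DNA methylation, contractile and TGF-beta response, IGF system, mesenchymal regulators) had a call in edgeR or DESeq2 with the block, and 24 of their genes had an unadjusted p under 0.05 in edgeR. With the length offset 1 gene of the IGF system list was called, the growth factor Igf1, named after its value was seen (-0.85 ± 0.16 (SE), edgeR adjusted p = 0.0437, against 0.0906 without the offset). On deposited TPM values (limma on log2(TPM + 1)) the median of all genes moved to 0.06 and that of the epithelial list to -0.22, with 11 of 18 negative and 0 calls. The medians there were -0.02 for the pluripotency list (5 of 10 negative), -0.03 for the neural list (10 of 16), -0.09 for cartilage and bone (8 of 15) and 0.02 for the Hox list, which turned positive.

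**Figure D5:**
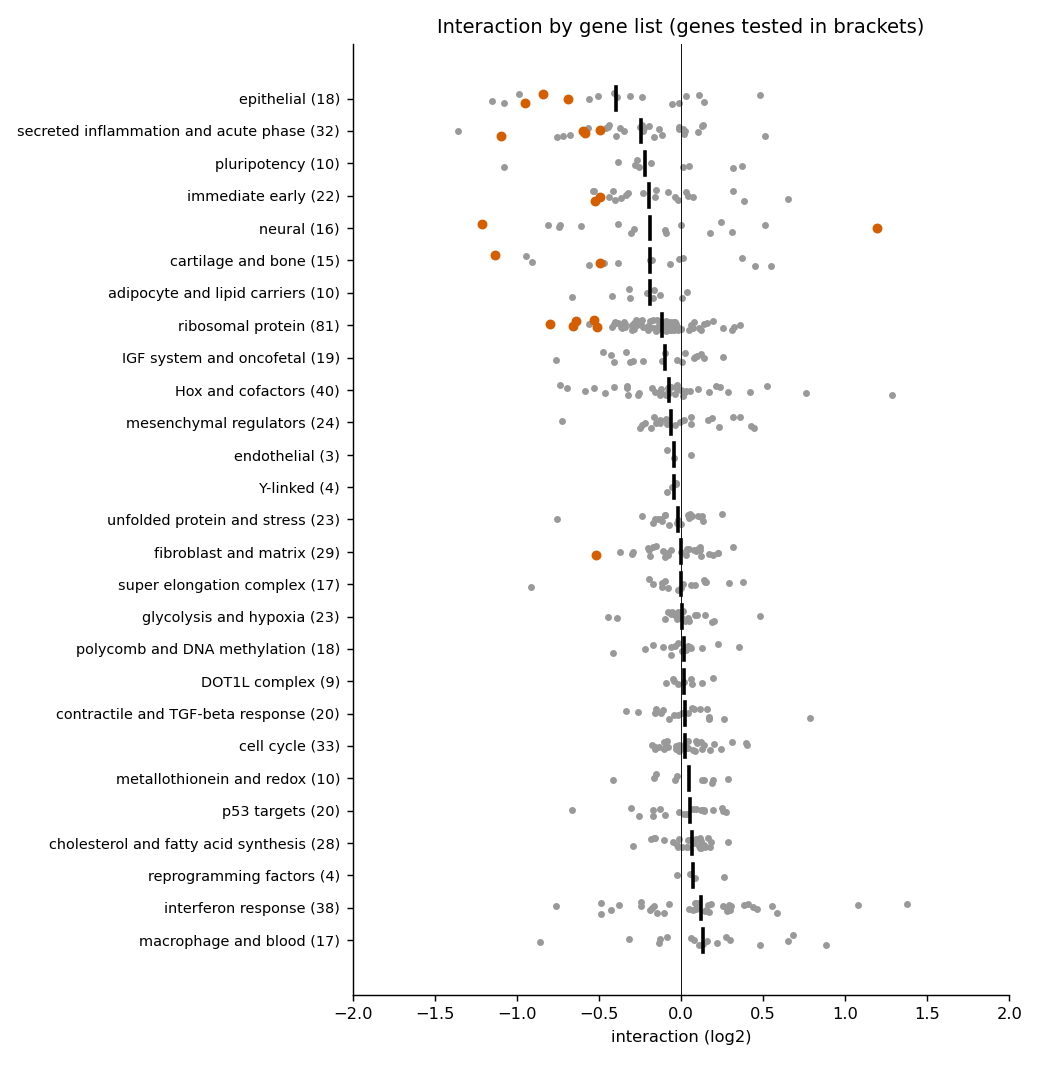
Interaction (x axis, log2) of each tested member of 27 gene lists, 1 point a gene, called genes in orange, with the list's median as a black bar. Epithelial genes have the lowest median (-0.40) and macrophage and blood genes the highest (0.14); 1 ribosomal protein gene that was not called lies outside the axis of ±2.

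MEFs that were not reprogrammed give a separate measure of AF10 deletion, in 4 libraries that the interaction did not use. There 0 of the 46 genes passed the test, where 134 of 13936 genes did (0.962%, with 0.84% lower, edgeR with a replicate block per stage, an analysis added after the data were seen). At an unadjusted p under 0.05 there were 5 of the 46 and 968 of all genes tested, and 27 of the 46 were positive with a median of 0.03. The starting levels differed widely. The MEF values below were scaled over all 12 libraries and the day 4 values over the 8, so their scales are not exactly the same. Ret had 1.30 to 2.44 CPM over the 4 MEF libraries and 34.1 to 96.2 on day 4, Upp1 0.533 to 0.971 in MEFs and 32.5 to 139 on day 4, and Spint1 0 to 0.138 in MEFs. Mfap4 and Apoe went the other way, with 243 to 791 and 224 to 297 CPM in MEFs and 21.2 to 54.7 and 34.1 to 113 on day 4. MEFs were grown in another medium, with neither feeder cells nor doxycycline, per the labels' protocols.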

How the data were processed

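Polyadenylated RNA was made into libraries with a TruSeq kit, per the labels' protocols. The deposited tables hold RSEM expected counts for 20325 RefSeq genes, per the file headers, and reads were aligned to mouse build mm9 with Bowtie and RSEM, with no versions given, per the submitters' processing notes. TPM, also deposited, divides such counts by transcript length, as does FPKM, which the authors deposited and which was not used. Rows were joined by transcript identifier, since 10 of the 12 files hold 25 names that read as dates. RSEM divides reads among near-identical genes.

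Expected counts of the 8 day 4 libraries (14602536 to 21109210 in total) were rounded and kept by edgeR's filterByExpr (13533 genes). edgeR 4.0.16 in R 4.3.3 fitted groups plus the replicate number as a block, with TMM scaling and robust quasi-likelihood tests. Adjusted p-values are Benjamini-Hochberg over all genes tested, and genes under 0.05 were called. CPM is the count scaled by the TMM-scaled total to a common library size. The pairing was checked: deviations of same-numbered libraries from their group means correlated at 0.497 to 0.63 over the 6 pairs of groups. Whether the 2 numbers are separate cultures or animals beyond the difference in Y-linked counts is not stated, so p-values measure the spread between these libraries only. The alternatives were fits without the block, with 12 libraries, with DESeq2 1.42.0, with limma 3.58.1 on log2(TPM + 1) and log2(TPM + 0.1), with other filters, scaling and dispersions, with a length offset, and without each library. The script was tested on simulated data.

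Genes named by rule were the 12 with the lowest p in each direction among those called with the same sign in both replicate numbers, up to 3 called members of each list, the 4 markers, Mllt10, Dot1l and the reprogramming factors, each with a mean count of at least 10. Of these, 1 gene is not reported here. Every other gene named was chosen after its values were seen. The experiment, lists and members were chosen with earlier results of these data known. MEF libraries entered no comparison but the MEF one.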

Additional observations from a re-analysis of the deposited data

Results flagged for a closer look

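The effect of SGC0946 differed between AF10-deleted and fl cells, by the interaction term of the fit with the replicate block, in each of 25 called genes named by the rule. On the log2 scale the difference was -1.21 for Bex1, -1.19 for Htra3, -1.13 for Col28a1, -1.10 for Lcn2, -0.95 for Spint1, -0.92 for Angptl7, -0.84 for Wnt16, -0.80 for Rpl26, -0.80 for Ret and -0.76 for Ier5. It was -0.74 for Aox3, -0.73 for Ptx3, -0.69 for Cdh1, -0.66 for Rgs3, -0.65 for Apoe, -0.64 for Upp1, -0.59 for Icam1, -0.58 for Mmp3, -0.52 for Junb, -0.52 for Mgp, -0.49 for Dusp1 and -0.49 for Spp1. In the other direction it was 0.61 for Pik3r3, 0.85 for Prune2 and 1.19 for Megf9. Without the block none of these passed the test in edgeR (0 genes of all tested).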

How the results depend on the processing

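The replicate block decided the counts of calls. The interaction had 50 calls with it. Without the block there were 0 in 8 and 0 in 12 libraries with edgeR and 5 with DESeq2. AF10 deletion in DMSO went from 841 to 0, 0 and 47 in those 3 fits without the block, AF10 deletion in SGC0946 from 24 to 0, 0 and 3, SGC0946 in fl cells from 2355 to 533, 155 and 479, SGC0946 in AF10-deleted cells from 1014 to 55, 1 and 110, and both against neither from 2850 to 826, 254 and 674. DESeq2 with the block gave 363, 1274, 425 and 1571 calls for AF10 deletion in DMSO, SGC0946 in fl cells, SGC0946 in AF10-deleted cells and both against neither. limma on TPM gave 9 and 9 calls for the interaction with pseudocounts of 1 and 0.1, 463 and 526 for AF10 deletion in DMSO and 0 and 0 for AF10 deletion in SGC0946. Without a filter on low counts the interaction had 114 calls and AF10 deletion in SGC0946 had 55, and with dispersions that were not robust the latter had 13. The length offset left 519 calls for AF10 deletion in DMSO. The cause was not tested. Leaving out each library in turn gave 9 to 53 calls for the interaction, 112 to 867 for AF10 deletion in DMSO, 1 to 31 for AF10 deletion in SGC0946, 1132 to 2500 for SGC0946 in fl cells, 381 to 1031 for SGC0946 in AF10-deleted cells and 1464 to 3031 for both against neither. The counts of AF10 deletion in DMSO, of SGC0946 in each genotype and of both against neither fell by over 1.5 times without any 1 library of the groups they compare, and that of AF10 deletion in SGC0946 without either replicate of Day4_fl_DMSO or Day4_creAF10_SGC or without Day4_fl_SGC replicate 2. The 50 called genes kept their sign in every alternative in which they were tested. Uncalled genes near 0 turned: Mllt10 to -0.0378 with the length offset, Dot1l to 0.0497 and 0.0522 and Myc to 0.0461 and 0.0462 with limma and pseudocounts of 1 and 0.1. With each library left out the interactions ran from -0.0385 to 0.088 for Mllt10, from -0.105 to 0.0746 for Dot1l, from -0.0725 to 0.201 for Sox2, from -0.00323 to 0.179 for Klf4 and from -0.0834 to 0.0371 for Myc. Depth limits genes such as Hp, Bex1, Spint1 and Megf9, with means of 113, 151, 178 and 173 counts.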
